A study of Mus musculus with 15 samples.

Results

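Cadherins are single-pass membrane proteins that bind cadherins on a neighbouring cell in the presence of calcium. Classical cadherins hold on to the actin cytoskeleton through catenins and are divided into type I and type II by their outermost repeat. Non-clustered protocadherins, most of them of the delta-1 and delta-2 groups, adhere more weakly and signal to actin regulators through their cytoplasmic tails. In the developing cerebellum, combinations of these genes are known to mark stripes of Purkinje cells (PCs), and several members act in cell sorting, axon targeting and synapse formation.

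The genes described here are the 35 protein-coding genes, of 38561 gene identifiers in the count tables, whose GENCODE M21 symbol is Cdh or Pcdh followed by a number (*Pcdh11x* included). They comprise 5 type I and 13 type II classical cadherins, 5 other numbered cadherins, 4 delta-1 protocadherins, 5 delta-2 protocadherins and 3 other non-clustered protocadherins. They were followed in laser-captured PCs of male mice, of a strain given as C56/BL6 in the labels and as C57/BL6 in the methods, at 5 ages from the day of birth (P0) over P4, P8 and P14 to P21, with 3 replicates per age and 15 libraries in all. According to the methods of the study, single PC soma were cut out from P4 on, whereas at P0 clusters of PCs were taken, since single cells were hard to isolate, so that a difference between P0 and later time points cannot be told apart from this change of capture. The methods call the replicates biological. The comparisons asked how expression changed as PCs grew their dendrites and formed synapses over the first 3 postnatal weeks.

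Total counts on genes ranged from 3409371 to 7814951 per library. Levels are given in RPKM (reads per kilobase of exon, scaled to library size), and sums over markers in CPM (counts scaled to library size), both with edgeR's TMM effective library sizes. RPKM takes exon length into account when levels of different genes are compared, but not 3′ bias of the amplified cDNA. A set of 6 PC markers (*Pcp2*, *Pcp4*, *Calb1*, *Car8*, *Itpr1* and *Ppp1r17*) summed to between 4549 and 6007 CPM at P0 and to between 36886 and 46640 CPM at P21, although *Ppp1r17* had a mean of only 0.99 CPM at P0. Of the other cell types, the 8 astrocyte and Bergmann glia markers had the highest sum, with means from 3863 CPM (P21) to 9202 CPM (P8). At P0 this glial sum ran from 4007 to 5627 CPM and overlapped with that of the PC markers. All 8 glial markers were detected at every time point. A set of 6 granule neuron markers summed to between 286 and 1022 CPM. Of these, *Atoh1* was at 0 in all libraries, while *Neurod1* had means from 199 CPM (P21) to 550 CPM (P8). Reads assigned to no feature in the counting made up 24.1% to 29.8% of the tallied reads at P0. Their share was 20.1% to 23.4% at P4 and P8 and 16.7% to 19.1% at P14 and P21. The counting took only reads fully contained in a feature, so reads without one need not lie outside genes. The part of these changes in marker levels and in reads without a feature in the results below was not tested. As in any bulk sample, fewer cells of a type and less RNA per cell cannot be told apart.

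Most of the cadherin genes that changed were lower in the libraries from older mice. At an adjusted p below 0.05 (edgeR's quasi-likelihood F test of postnatal day as a number, Benjamini-Hochberg adjustment over 14293 genes), 10 of the 27 members that passed the filter on low counts fell with day (37.0%) and 1 rose (3.70%). Of all genes tested, 14.1% fell and 12.1% rose, 26.2% in all. The falling members were *Cdh4*, *Cdh9*, *Cdh10*, *Cdh11*, *Cdh13*, *Pcdh7*, *Pcdh8*, *Pcdh10*, *Pcdh12* and *Pcdh19*, and the rising member was *Pcdh20*. The median slope of the 27 members was -0.087 log2 units per day, beside -0.0077 over all genes tested, and 19 of them (70.4%) had a negative slope, as had 55.1% of all genes. The filter keeps a gene that reaches the minimum in a few libraries only. A member present at a single stage can therefore pass because of that stage. Among the falling members, *Pcdh12* did not pass the filter without P0. The shares above are given as a description. Without the P0 time point, 6 of the 25 members tested fell and 2 rose, beside 11% and 10.2% of the 13854 genes tested.

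**Figure D1:**
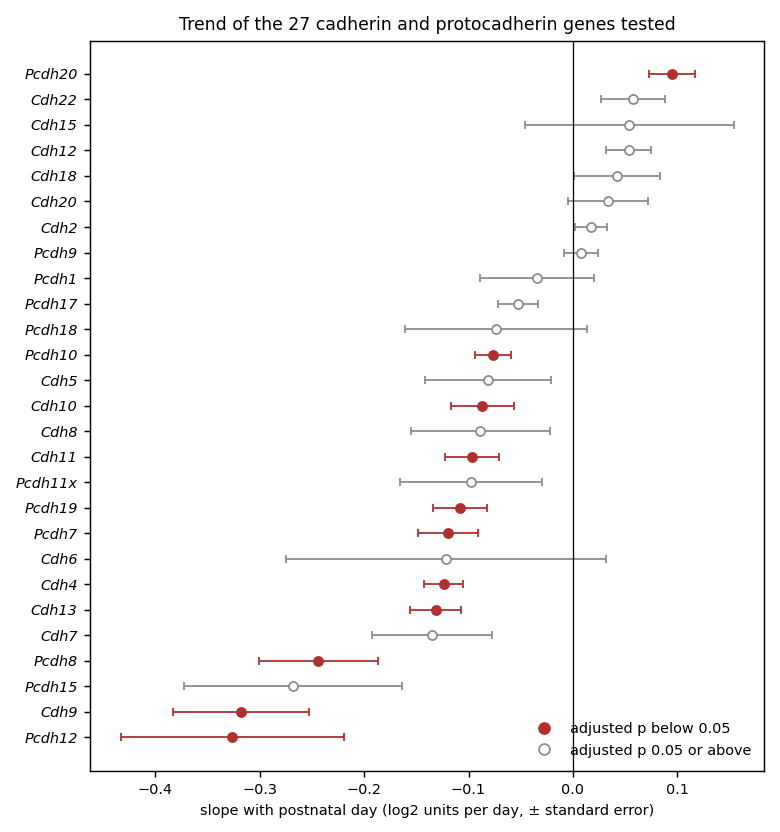
Slope of each of the 27 tested genes with postnatal day in log2 units per day (horizontal axis), with the standard error as a bar. Filled points passed an adjusted p of 0.05 in edgeR's test. The 10 filled points left of 0 are the falling genes and *Pcdh20* is the only filled point on the right.

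Summed over the 35 genes, P0 libraries held 226 ± 17.6 RPKM (SD, n = 3) and P4 libraries 148 ± 14.1. The sum was 104 ± 5.95 by P8, and P14 and P21 stood at 107 ± 9.51 and 101 ± 11.1. The 3 P0 libraries (206 to 240) lay above the 3 P4 libraries (137 to 164), which lay above all later libraries (92.3 to 114). The later time points overlapped with each other. Delta-2 protocadherins went from 25.6% of this sum at P0 to 15.3% at P21, and delta-1 protocadherins from 15.2% to 26.3%, while type II cadherins stayed between 28.7% and 35.3% in the means of the time points.

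**Figure D2:**
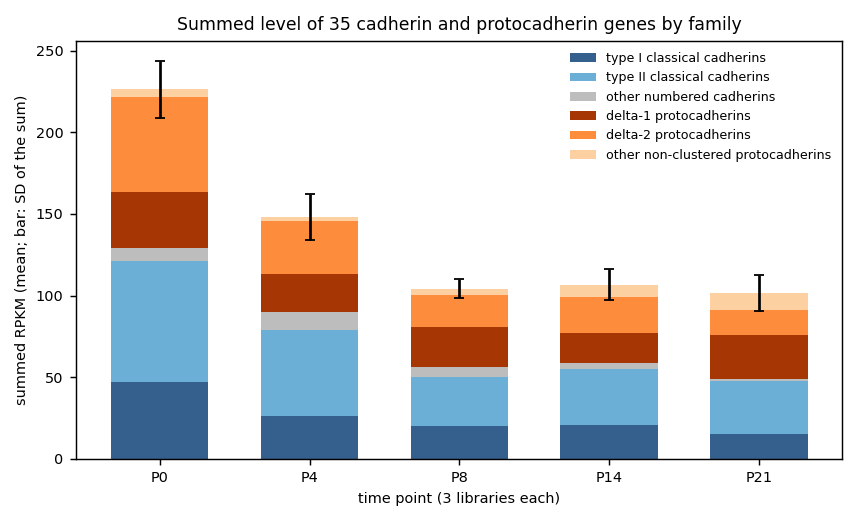
Summed RPKM (vertical axis) of the 35 genes at the 5 time points, as stacked means of 3 libraries for each family, with the SD of the whole sum as a bar. The sum stands at 226 at P0 and between 101 and 107 from P8 on.

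The order of the members changed with it. At P0 the highest mean levels were those of *Cdh9* (43.9 ± 25.8 RPKM, SD, n = 3), *Cdh4* (39.2 ± 9.68), *Pcdh17* (26.6 ± 15.4) and *Pcdh9* (24.5 ± 7.57), which overlapped between libraries. At P21 the order was *Pcdh9* (24.5 ± 6.21), *Cdh12* (12.5 ± 6.52), *Pcdh20* (10.2 ± 2.13), *Pcdh17* (9.58 ± 2.14) and *Cdh2* (8.37 ± 1.36). Every P21 library of *Pcdh9* (lowest 20.2) was above every P21 library of *Cdh12* (highest 20.1), by a margin far smaller than the SDs, and *Cdh12*, *Pcdh20*, *Pcdh17* and *Cdh2* overlapped.

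**Figure D3:**
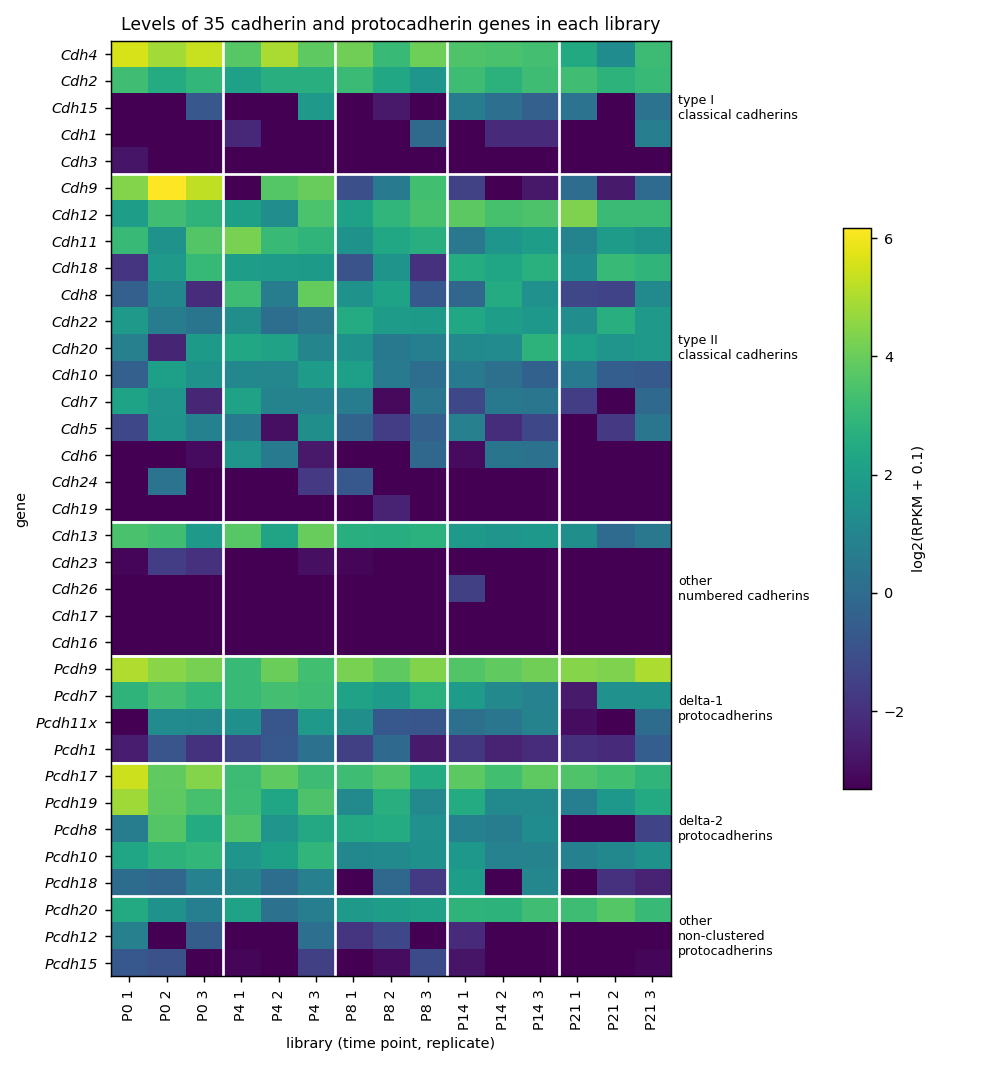
Level of each of the 35 genes (rows, grouped by family and ordered by mean) in each of the 15 libraries (columns) as log2(RPKM + 0.1). *Pcdh9* and *Pcdh17* have counts in all libraries, *Cdh9* and *Pcdh8* are high on the left and near or at 0 on the right, and *Cdh16* and *Cdh17* are at 0 throughout.

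Promoter sequences are shown for the 3 delta-2 protocadherins that fell with day, *Pcdh8*, *Pcdh10* and *Pcdh19*, and for the rising *Pcdh20*, so that their start regions can be compared. RefSeq's table for GRCm38.p6 held a promoter window for 22 of the 35 genes (25 windows), and each sequence is the 250 bases before the RefSeq start, 5′ to 3′ on the gene's strand. Capitals mark GC boxes (GGGCGG), E-boxes (CANNTG) and TATA boxes (TATAAA), searched on both strands, none of which overlap here. The windows lie at chr14:79771313-79771562 (minus strand) for *Pcdh8*, chr3:45378148-45378397 (plus) for *Pcdh10*, chrX:133688994-133689243 (minus) for *Pcdh19* and chr14:88471397-88471646 (minus) for *Pcdh20*.
Pcdh8: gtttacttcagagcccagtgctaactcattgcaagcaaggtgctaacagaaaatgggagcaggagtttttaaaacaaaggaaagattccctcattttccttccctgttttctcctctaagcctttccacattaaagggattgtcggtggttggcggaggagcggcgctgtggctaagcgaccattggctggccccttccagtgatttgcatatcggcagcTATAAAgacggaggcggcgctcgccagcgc
Pcdh10: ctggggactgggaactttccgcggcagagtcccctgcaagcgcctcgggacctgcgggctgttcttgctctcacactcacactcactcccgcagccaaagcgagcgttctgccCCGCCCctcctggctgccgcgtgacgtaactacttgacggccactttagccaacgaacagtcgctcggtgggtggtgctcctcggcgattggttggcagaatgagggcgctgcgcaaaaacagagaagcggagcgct
Pcdh19: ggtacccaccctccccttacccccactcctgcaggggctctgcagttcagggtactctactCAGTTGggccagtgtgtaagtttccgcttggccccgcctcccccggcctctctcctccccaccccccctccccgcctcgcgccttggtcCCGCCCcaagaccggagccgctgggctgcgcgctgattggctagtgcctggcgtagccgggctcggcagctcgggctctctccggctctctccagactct
Pcdh20: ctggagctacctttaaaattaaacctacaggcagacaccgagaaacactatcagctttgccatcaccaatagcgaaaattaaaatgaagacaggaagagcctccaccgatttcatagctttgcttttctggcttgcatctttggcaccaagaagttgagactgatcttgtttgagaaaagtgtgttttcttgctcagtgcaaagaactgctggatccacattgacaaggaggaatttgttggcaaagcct

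The *Pcdh8* window held a TATA box, that of *Pcdh10* a GC box, that of *Pcdh19* a GC box and an E-box, and that of *Pcdh20* none of these letters. Over all 32851 promoter windows of the table, 32.7% held a GC box, 66.2% an E-box and 12.4% a TATA box. The share of G and C was 51.2% for *Pcdh8*, 63.2% for *Pcdh10*, 69.2% for *Pcdh19* and 42.4% for *Pcdh20*, with a median of 52.4% over all windows. The ratio of observed to expected CG pairs was 0.673, 0.883, 0.573 and 0.267 in the same order, beside a median of 0.374 over all windows.

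Among the type I cadherins, *Cdh4* (R-cadherin, on chromosome 2 of GRCm38 from 179442431 to 179899373, plus strand) fell with the smallest adjusted p of the 27 tested members. Its RPKM in replicates 1, 2 and 3 was 47.7, 28.7 and 41.1 at P0, 13.1, 31.3 and 14 at P4, 17.3, 8.65 and 16.9 at P8, 11.54, 10.8 and 10.1 at P14, and 5.34, 2.33 and 8.98 at P21. All P14 and P21 libraries lay below all P0 and P4 libraries, which holds for 3 of the 27 members and for 7.14% of all genes tested. The slope was -0.12 ± 0.018 log2 units per day (SE, adjusted p = 5.43e-05, edgeR).

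*Cdh2* (N-cadherin, the main type I cadherin of neurons, on chromosome 18) had a different course. Its RPKM was 9.39, 5.68 and 7.76 at P0, 4.26, 6.29 and 6.31 at P4, 8.82, 5.13 and 3.05 at P8, 9.15, 6.72 and 9.26 at P14, and 9.56, 6.88 and 8.66 at P21. The P4 libraries lay below those of P14 and P21, while P0 and P8 overlapped with all other time points, and the slope of 0.018 (standard error 0.015) did not pass the test (adjusted p = 0.449 from edgeR). The mean of *Cdh4* was above that of *Cdh2* at P0 (39.2 beside 7.61 RPKM) and below it at P21 (5.55 beside 8.37 RPKM), where the libraries of the 2 genes overlapped and *Cdh4* was the higher in replicate 3.

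Of the type II cadherins, *Cdh9* (chromosome 15, 16728756 to 16857094, plus strand), a synaptic adhesion gene in other brain regions, had the lowest slope among the called members with counts in most libraries. Its RPKM was 21.2, 72.0 and 38.4 at P0, 0, 12.6 and 15.6 at P4, 0.399, 1.46 and 9.81 at P8, 0.260, 0 and 0.0542 at P14, and 0.943, 0.0598 and 0.905 at P21. All P0 libraries were above all others, and no P14 or P21 library reached 1 RPKM. Replicates differed at P4, where replicate 1 had no count while the others had 345 and 322. The slope was -0.32 ± 0.065 (SE, adjusted p = 0.00122, edgeR), and without the P0 time point it was -0.25 (adjusted p = 0.0644).

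*Cdh11* (OB-cadherin, chromosome 8, 102632095 to 102785642, minus strand) is also known from mesenchymal cells. Its RPKM was 8.34, 2.83 and 12.4 at P0, 18.9, 8.47 and 7.31 at P4, 2.88, 5.01 and 6.15 at P8, 1.28, 3.10 and 3.79 at P14, and 1.84, 3.71 and 2.93 at P21. The P14 and P21 libraries were below those of P4, and P0 replicate 2 lay among the late libraries (slope -0.097, standard error 0.026, adjusted p = 0.00907 from edgeR). The 6 mural and meningeal markers (*Pdgfrb*, *Rgs5*, *Col1a1*, *Col1a2*, *Dcn* and *Lum*) summed to between 80.6 and 119 CPM at P0, 46.6 and 270 at P4, 103 and 232 at P8, 77.9 and 110 at P14 and 41.4 and 81.0 at P21, and P4 replicate 1 was the highest library for both. *Lum* was at 0 at all time points but P14. The part of these cells in the course of *Cdh11* was not tested.

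*Cdh10* (chromosome 15) fell with a slope of -0.087 ± 0.030 (SE, adjusted p = 0.0410, edgeR). Its RPKM was 0.651, 4.01 and 2.78 at P0, 2.07, 2.01 and 3.63 at P4, 4.01, 1.40 and 0.990 at P8, 1.45, 1.03 and 0.668 at P14, and 1.39, 0.611 and 0.542 at P21. The early and late libraries overlapped because of P0 replicate 1. The call was lost when any of 8 single libraries was left out.

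*Cdh12* (chromosome 15) was the highest type II cadherin at P14 and P21. Its RPKM was 3.81, 9.60 and 7.10 at P0, 4.12, 2.40 and 11.2 at P4, 4.22, 7.44 and 10.4 at P8, 13.6, 10.7 and 11.51 at P14, and 20.1, 8.87 and 8.69 at P21. The P14 libraries lay above all P0 and P8 libraries, while P4 and P21 overlapped with them and with each other, and the slope of 0.053 (standard error 0.021) did not pass the test (adjusted p = 0.0758 from edgeR), except without P0 replicate 2 (0.065, adjusted p = 0.0453).

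The other type II cadherins scattered between replicates. *Cdh8* had 0.646, 2.05 and 0.131 RPKM at P0, 9.35, 1.504 and 15.2 at P4, and at most 5.69 afterwards, so that P4 held its highest libraries and also a library within the range of P0. *Cdh18* had 0.169, 3.31 and 8.06 at P0 and 5.78, 4.84 and 6.37 at P14. *Cdh6* had 111, 102 and 3 counts at P4, between 0 and 56 at P8 and P14, 1 count at P0 and none at P21. The sum of 5 oligodendrocyte precursor markers, given beside *Cdh20*, ranged from 11.4 to 134 CPM. Neither these genes nor *Cdh5*, *Cdh7*, *Cdh20* and *Cdh22* passed the test of the trend (adjusted p between 0.0939 for *Cdh7* and 0.615 for *Cdh6*, edgeR). The median SD of log2(CPM + 1) within time points was 0.877 for the 27 members and 0.719 for all genes tested.

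*Cdh13* (T-cadherin, which is anchored by a lipid and lacks a cytoplasmic tail, chromosome 8, 118283733 to 119324921, plus strand) also fell with day. Its RPKM was 10.7, 9.54 and 3.43 at P0, 12.9, 4.57 and 15.4 at P4, 6.30, 5.94 and 6.55 at P8, 3.41, 3.001 and 3.28 at P14, and 2.56, 0.886 and 1.28 at P21. All late libraries lay below all early ones, with P0 replicate 3 just above the highest P14 library. The slope was -0.13 ± 0.024 (SE, adjusted p = 4.40e-04, edgeR), and it was -0.16 (adjusted p = 1.23e-04) without the P0 time point.

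**Figure D4:**
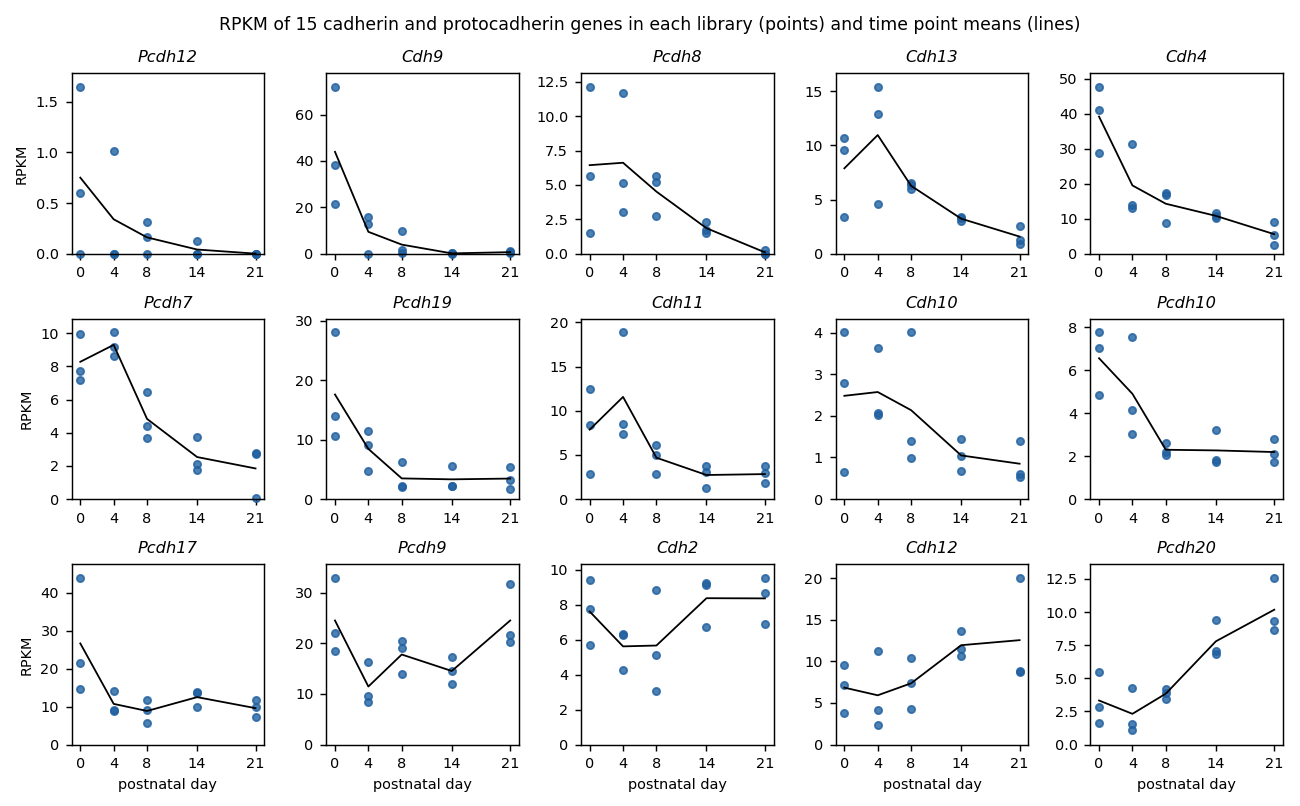
RPKM (vertical axes, each with its own scale from 0) against postnatal day for the 15 genes whose values are given in every library, ordered by slope. Points are libraries and lines join the means of 3. *Cdh9* and *Pcdh8* end near 0, *Pcdh9* is low at P4, and *Pcdh20* is above its early libraries from P14 on.

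The delta-1 protocadherins held the member with the highest mean over all libraries, *Pcdh9* (chromosome 14, 93013410 to 93890679, minus strand). This mean of 18.58 RPKM was close to that of *Cdh4* (17.85). With another scaling of the libraries *Cdh4* reached 18.72 RPKM, above the highest value of *Pcdh9* (18.64). The RPKM of *Pcdh9* was 33.0, 22.0 and 18.5 at P0, 8.39, 16.3 and 9.67 at P4, 19.0, 13.9 and 20.5 at P8, 11.9, 14.5 and 17.2 at P14, and 21.7, 20.2 and 31.7 at P21. The P4 libraries lay below those of P0 and P21, with no overlap. Its linear trend did not pass the test (slope 0.0081, standard error 0.016, adjusted p = 0.771), but it differed between time points when these were entered as a factor (adjusted p = 0.0480, both from edgeR). The latter call was lost when any of 13 single libraries was left out. Without the P0 time point the slope was 0.053 (adjusted p = 0.0406).

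*Pcdh7* (chromosome 5, 57717967 to 58133230, plus strand) had similar levels at P0 and P4 and lower ones later. Its RPKM was 7.16, 9.95 and 7.70 at P0, 8.65, 10.1 and 9.16 at P4, 4.39, 3.67 and 6.43 at P8, 3.73, 2.13 and 1.74 at P14, and 0.0630, 2.70 and 2.78 at P21. All libraries from P8 on lay below all early ones (slope -0.12, standard error 0.029, adjusted p = 0.00437 from edgeR). P21 replicate 1, the library with the fewest total counts, had 2 counts. An RNA gene on the other strand, *4932441J04Rik*, shares 2235 of the 10604 exon bases of *Pcdh7*, and reads there cannot be assigned without strand. The other delta-1 genes, *Pcdh1* and *Pcdh11x*, did not pass the test (adjusted p = 0.702 and 0.324 from edgeR), and *Pcdh1* exceeded 1 RPKM only in P4 replicate 3.

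Of the 5 delta-2 protocadherins, 3 fell with day and 4 differed between time points, beside 14.1% and 19.3% of all genes tested. *Pcdh8* (chromosome 14, 79766775 to 79771312, minus strand), known as an activity-induced gene of dendrites, had an RPKM of 1.48, 12.2 and 5.67 at P0, 11.7, 2.99 and 5.17 at P4, 5.20, 5.63 and 2.71 at P8, 1.70, 1.52 and 2.33 at P14, and 0, 0 and 0.282 at P21. The P21 libraries, with 0, 0 and 8 counts, were all below every other library. The slope was -0.24 ± 0.057 (SE, adjusted p = 0.00338, edgeR).

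*Pcdh19* (chromosome X, 133582860 to 133688987, minus strand), whose human counterpart is an epilepsy gene, had an RPKM of 28.1, 14.03 and 10.6 at P0, 9.14, 4.70 and 11.46 at P4, 2.16, 6.18 and 2.09 at P8, 5.58, 2.21 and 2.16 at P14, and 1.63, 3.26 and 5.46 at P21. The mean was highest at P0, but P4 replicate 3 (11.46) lay above P0 replicate 3 (10.6), and the libraries from P8 to P21 overlapped. The slope was -0.11 ± 0.026 (SE, adjusted p = 0.00386, edgeR), and -0.064 (adjusted p = 0.159) without P0.

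*Pcdh10* (OL-protocadherin, chromosome 3, 45378398 to 45435623, plus strand), which is known from PC stripes, had an RPKM of 4.85, 7.03 and 7.77 at P0, 3.01, 4.12 and 7.56 at P4, 2.07, 2.19 and 2.63 at P8, 3.23, 1.75 and 1.81 at P14, and 1.70, 2.08 and 2.78 at P21. All P0 libraries lay above all libraries from P8 on, and the libraries from P8 on overlapped. The slope was -0.077 ± 0.018 (SE, adjusted p = 0.00281, edgeR), and -0.057 (adjusted p = 0.0845) without P0.

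*Pcdh17* (chromosome 14, 84443563 to 84539002, plus strand) had an RPKM of 44.0, 14.5 and 21.4 at P0, 8.91, 14.2 and 9.03 at P4, 9.20, 11.7 and 5.58 at P8, 13.7, 9.79 and 13.9 at P14, and 11.6, 9.78 and 7.35 at P21. Every P0 library was above every later one, and the later time points overlapped. It differed between time points (adjusted p = 0.0138), while its slope of -0.053 (standard error 0.019) had an adjusted p of 0.0502 (both from edgeR) and was 0.0020 without P0. The trend was called in 10 of 22 alternatives, among them DESeq2's test (adjusted p = 0.0216) and log2(day + 1) (adjusted p = 0.00575). Without P0 replicate 1 alone, the highest library, the slope was -0.025 and the call between time points was lost (adjusted p = 0.134, edgeR). The remaining delta-2 gene, *Pcdh18*, ranged from 0 to 3.77 RPKM and did not pass either test.

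*Pcdh20* (chromosome 14, 88464743 to 88471396, minus strand) was the only member with a called rise in the trend over all libraries, although its mean was lower at P4 than at P0. Its RPKM was 5.498, 2.85 and 1.62 at P0, 4.29, 1.11 and 1.56 at P4, 3.45, 3.86 and 4.21 at P8, 7.07, 6.87 and 9.44 at P14, and 9.30, 12.6 and 8.63 at P21. All 6 late libraries were above all 6 early ones, which holds for 8.24% of all genes tested. The slope was 0.095 ± 0.022 (SE, adjusted p = 0.00328, edgeR), and 0.13 (adjusted p = 0.00187) without P0.

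*Pcdh8*, *Pcdh17*, *Pcdh20* and *Pcdh9* lie in this order on chromosome 14, between 79766775 and 93890679, with different courses of their means. The first fell and the third rose. The second was highest at P0 and the fourth lowest at P4, and the calls between time points of these last genes depended on single libraries. Likewise, *Cdh6*, *Cdh9*, *Cdh10*, *Cdh12* and *Cdh18* lie on chromosome 15 between 13028701 and 23474418, where *Cdh9* and *Cdh10* fell and the others did not pass the test.

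The last falling member, *Pcdh12*, a gene of endothelial cells, was found in few libraries. It had 52, 0 and 18 counts at P0, 0, 0 and 36 at P4, 5, 10 and 0 at P8, 4, 0 and 0 at P14, and no count at P21. P0 and P4 each held libraries at 0, so the groups overlapped, and the adjusted p of 0.0295 (slope -0.33, standard error 0.107, edgeR) was lost when any of 6 single libraries was left out. The 5 vascular markers (*Cldn5*, *Pecam1*, *Flt1*, *Kdr* and *Tek*) summed to between 33.7 and 137 CPM at P0, 31.6 and 52.0 at P4, 57.0 and 102 at P8, 32.4 and 48.0 at P14 and 19.2 and 35.4 at P21, and P0 replicate 1 was the highest library for both. *Cdh5* (VE-cadherin), which defines endothelial cells, ranged from 0 to 2.88 RPKM and did not pass the test (adjusted p = 0.359 from edgeR). The part of vascular cells in the course of *Pcdh12* was not tested. The gene did not pass the filter on low counts without the P0 time point. A gene that passes through its high P0 libraries can hardly do other than fall, so nothing is drawn from its call.

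With the time point as a factor, 10 of the 27 members (37.0%) differed between time points at an adjusted p below 0.05 from edgeR, beside 19.3% of all genes tested. Of these, *Pcdh9* and *Pcdh17* had no called trend. No member passed the test in a single step between neighbouring time points by edgeR with the filter on low counts, where 1.97% of all genes passed from P0 to P4, 1.13% from P4 to P8, 2.67% from P8 to P14 and 0.329% from P14 to P21. Without the filter, edgeR called *Pcdh17* from P0 to P4. At an unadjusted p below 0.05, 5, 4, 2 and 6 of the 27 members passed in these steps, beside 14.9%, 11.8%, 13.4% and 7.02% of all genes tested. DESeq2's Wald test called 4 members from P0 to P4 (*Pcdh9*, *Pcdh17*, *Cdh6* and *Cdh8*), 0 from P4 to P8, *Cdh9* from P8 to P14 and *Pcdh8* from P14 to P21, and limma-voom called 0 in each step. Of all genes with an adjusted p from DESeq2, 5.75%, 3.56%, 6.18% and 1.27% were called in these steps.

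In all, 8 members did not pass the filter. *Cdh16* and *Cdh17*, cadherins of kidney and gut epithelia, had no count in any library, which allows up to 3 counts per library, or between 0.384 and 0.880 CPM of the library total. *Cdh3* had 1 count and *Cdh19* 2 counts in all libraries together, *Cdh26* had 4 and *Cdh24* 33. *Cdh1* (E-cadherin) had 45 counts in P21 replicate 3 and 22 in P8 replicate 3, and at most 3 elsewhere. The 4 choroid plexus markers (*Ttr*, *Folr1*, *Kl* and *Aqp1*) summed to 5.61 CPM in P8 replicate 3 and to 0 in the other P8 libraries, and to 1.12 CPM in P21 replicate 3, with a range of 0 to 31.7 CPM over all libraries. Their part in the counts of *Cdh1* was not tested. *Cdh23*, which forms the tip links of hair cells with *Pcdh15*, had 1, 20 and 13 counts at P0, at most 3 at P4 and P8 and none from P14 on, while *Pcdh15* reached at most 0.510 RPKM (slope -0.27, adjusted p = 0.0667 from edgeR). *Cdh15* (M-cadherin), known from granule neurons, passed the filter but not the test of the trend (slope 0.054, adjusted p = 0.748 from edgeR). It was at 0 in 7 libraries and at most 3.32 RPKM in the others. The 6 granule neuron markers (*Gabra6*, *Neurod1*, *Pax6*, *Atoh1*, *Barhl1* and *Zic1*) summed to between 286 and 1022 CPM.

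Genes that work with cadherins were read beside the same shares of all genes tested, 14.1% falling and 12.1% rising. Of 15 cadherin-catenin junction partners, 5 fell (33.3%) and 2 rose (13.3%, near the share of all genes), with a median slope of -0.026 (edgeR, adjusted p below 0.05). The 2 lowest slopes were those of *Arvcf*, a p120-catenin relative (-0.16, standard error 0.039), and of the adhesion protein *Nectin3* (-0.12, standard error 0.024), and the rising genes were *Plekha7* (0.11) and *Pkp4* (0.056), both of the adherens junction. *Nectin3* went from 81.2 ± 36.7 CPM (SD, n = 3) at P0 to 15.1 ± 12.4 at P21. The alpha-N-catenin gene *Ctnna2*, *Ctnnb1* (beta-catenin) and *Ctnnd2* (delta-catenin) were also among the falling genes, with slopes of -0.074, -0.026 and -0.044.

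Of 6 enzymes that process or cleave cadherins, the presenilin gene *Psen2* rose (0.053, standard error 0.019, adjusted p = 0.0426 from edgeR) and the others did not pass the test. Of 12 cytoplasmic partners of delta protocadherins, most of them subunits of the actin-regulating WAVE complex, 3 rose (25.0%) and 2 fell (16.7%, near the share of all genes). Within its WASF subunits, *Wasf3* rose (0.10, from 14.4 ± 3.84 CPM at P0 to 48.3 ± 18.3 at P21, SD, n = 3), while *Wasf2* (-0.11) and *Wasf1* (-0.055) fell. *Nckap1* (0.038) and *Cyfip2* (0.036) rose.

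Of the 13 tested genes among 15 atypical members of the cadherin superfamily, 6 fell (46.2%) and 2 rose (15.4%), beside 14.1% and 12.1% of all genes. *Clstn3* (calsyntenin-3, a synaptic adhesion protein) rose from 137 ± 50.3 CPM at P0 to 1104 ± 206 at P21 (SD, n = 3, slope 0.14, standard error 0.014, adjusted p = 8.51e-07 from edgeR), and *Celsr2* rose with a slope of 0.046. *Dsc2* (-0.42) and *Cdhr1* (-0.38) had the lowest slopes. Their means went from 5.96 ± 6.27 and 4.97 ± 6.91 CPM at P0 (SD, n = 3) to no count at P14 and P21. The other falling genes were *Dchs1* (-0.29), *Celsr1* (-0.24), *Fat4* (-0.18) and *Clstn1* (-0.076). From P0 to P21, the mean of *Dchs1* went from 79.6 to 1.14 CPM, that of *Fat4* from 73.1 to 5.17 and that of *Clstn1* from 244 to 74.8. With groups at 0, as for *Dsc2*, *Cdhr1*, *Celsr1* and *Pcdh12*, a fitted slope depends on the model's prior count. *Celsr1* had a mean of 7.27 CPM at P0, 0 at P14 and 0.320 at P21. Genes near 0 in the late libraries can pass the filter only through their early ones and can hardly do other than fall. The shares of falling genes are therefore given as a description. Over the 46 tested genes of these 4 lists, 8 rose (17.4%) and 13 fell (28.3%), beside 12.1% and 14.1% of all genes tested.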

How the data were processed

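The 15 libraries were made from RNA of mouse PCs taken by laser capture, 3 at each of 5 time points. The authors trimmed the reads (cutadapt 1.2.1), aligned them to GRCm38/mm10 with GSNAP and counted uniquely mapping reads with HTSeq 0.5.3p9 (intersection-strict). What they deposited are raw counts, whole numbers for each Ensembl gene. The annotation release and the strand setting are not given in the sources used here. Reads assigned to no feature (16.7% to 29.8% of the tallied reads) were left out.

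Gene names, positions and exon lengths came from GENCODE M21, which held 36639 of the 38561 identifiers. Counts were tested with edgeR 4.0.16 (R 4.3.3; TMM, filterByExpr by time point, quasi-likelihood F test) with day as a number or time point as a factor. Standard errors were derived from the estimate and its F statistic. Adjusted p-values are Benjamini-Hochberg values over the 14293 genes tested. The tests were checked on simulated data. Alternatives used DESeq2 1.42.0 and limma 3.58.1. Exon length sums do not allow for 3′ bias of the amplified cDNA, and counting floors (3 counts) cover counting error only.

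Values in every library are given for members called in either test or among the 10 highest by mean RPKM, 15 in all, and partner genes are named by the 2 largest slopes each way among those called in a list. *Ctnna2*, *Ctnnb1*, *Ctnnd2*, *Cyfip2*, *Wasf1*, *Dchs1*, *Celsr1*, *Fat4*, *Clstn1* and members outside this rule were named after their values were seen. Members and lists were chosen with earlier results of these data known.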

Additional observations from a re-analysis of the deposited data

How the results depend on the processing

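Leaving out the P0 time point changed the counts most: 6 members fell instead of 10 and 2 rose instead of 1 (*Pcdh20* and *Pcdh9*), and 6 partner genes fell instead of 13. *Pcdh12*, which fell with all libraries, did not pass the filter without P0. Nearly as few members, 7 each, fell with limma-voom and with day as log2(day + 1). In these 2 settings 1807 and 1476 of the 14293 genes tested fell. With day as log2(day + 1), 5 partner genes rose instead of 8. From P0 to P4, DESeq2's test called 4 members and the test of every gene with a count called 1 (*Pcdh17*), beside 0 in the fit reported. From P8 to P14 and from P14 to P21, DESeq2's test called 1 member each, beside 0. The cause of these differences was not tested.

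With 1 library left out at a time, 28 to 30 members were tested. Of these, between 9 and 13 fell (8 to 12 of the 27 tested with all libraries), 1 to 2 rose and 7 to 10 differed between time points. Of all 14962 to 15064 genes tested in these fits, between 1800 and 2161 fell and between 1570 and 1814 rose. Among partner genes, 7 to 8 rose and 11 to 15 fell. In the steps P0 to P4, P8 to P14 and P14 to P21, 0 to 1 member was called (0 from P4 to P8). *Cdh23*, which did not pass the filter with all libraries, passed it in 13 of these fits and was called falling in each (adjusted p from 7.28e-04 to 0.00241, edgeR). It passed only where P0 replicates 2 and 3, with 20 and 13 counts, were both kept. A gene that passes through its high P0 libraries can hardly do other than fall, so nothing is drawn from these calls. *Cdh24* was called in 2 fits, without P0 replicate 1 or 3, and P0 replicate 2 held 20 of its 33 counts. The second rising member was *Cdh12*, without P0 replicate 2. *Pcdh17* was called from P0 to P4 without P0 replicate 2, *Pcdh9* without P4 replicate 2, *Cdh9* from P8 to P14 without P4 replicate 1 and *Pcdh8* from P14 to P21 without P21 replicate 3. In all 15 of these fits, 9 members were called for a trend (*Cdh4*, *Cdh9*, *Cdh11*, *Cdh13*, *Pcdh7*, *Pcdh8*, *Pcdh10*, *Pcdh19* and *Pcdh20*). A difference between time points was called in all 15 for 6 members (*Cdh4*, *Cdh9*, *Cdh13*, *Pcdh8*, *Pcdh10* and *Pcdh19*), whereas *Cdh11*, *Pcdh9*, *Pcdh17* and *Pcdh20* lost that call in 5, 13, 1 and 7 of these fits. Of 329 slopes of the 15 members under all alternatives, 26 lost a call, 12 gained a call and 0 changed sign with a call. *Pcdh8* lost its call with limma-voom (adjusted p = 0.0512) and with log2(day + 1) (adjusted p = 0.102), and *Cdh11* with the latter (adjusted p = 0.0504). *Cdh10* lost its call in both settings (adjusted p = 0.130 and 0.139), as did *Pcdh12* (adjusted p = 0.162 and 0.0938). With DESeq2's test *Pcdh12* was not called either (adjusted p = 0.0585).

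With the replicate number as a block, 10 members fell, 1 rose and 8 differed between time points. Of the 14293 genes tested, 1911 fell and 1723 rose in this fit. *Pcdh12* lost its call there (adjusted p = 0.0674, edgeR) and *Pcdh15* gained one (adjusted p = 0.0462, edgeR). Deviations of same-numbered libraries from their group means correlated between -0.0316 and 0.0472 over 30 pairs. For libraries with different numbers, the range was -0.0527 to 0.0383 over 60 pairs. These ranges overlap, but they cannot show whether same-numbered samples were paired. Depth limits the low members, since 3 counts correspond to 0.384 to 0.880 CPM.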
